A study of Mus musculus with 6 samples.

Results

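The collagen chains of mouse epicardium and subepicardium were compared between control hearts and hearts in which WT1-Cre targeted floxed Meis1 and Meis2. The chains are the 36 genes, of 14549 in the deposited expression table, whose symbols have the form Col, a type number, a and a chain number. They were grouped by the supramolecular structure their proteins build: 10 fibrillar chains, 6 basement membrane chains (type IV), 5 FACIT chains (fibril-associated collagens with interrupted triple helices), 5 microfibrillar chains (type VI) and 10 others. The mouse annotation GENCODE M21 lists 44 such genes. The 8 without a row in the table used (Col6a4, Col9a1, Col10a1, Col11a2, Col17a1, Col19a1, Col20a1 and Col22a1) were not analysed here.

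Polyadenylated RNA came from hearts at stage E16.5. The 3 control libraries are labelled wild-type, and the labels do not say whether these embryos carried floxed alleles or the Cre, or which exons were floxed. The 3 dKO libraries came from Meis1fl/fl;Meis2fl/fl;WT1-Cre embryos, in which the WT1 driver directs recombination to cells with a history of WT1 expression, such as the epicardium and its descendants. Libraries were made from pools of 2 hearts each and keep their title numbers (control 1, 2 and 4, dKO 1, 2 and 3).

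Every collagen is a trimer of chains that wind around one another through repeats of glycine and 2 other residues. Fibrillar collagens, mainly types I and III in the heart, form the tensile fibres that fibroblasts deposit. FACIT collagens sit on the surface of those fibres. Type VI forms beaded microfibrils between fibres and basement membranes, and type IV forms the sheet-like network inside basement membranes, under mesothelium and endothelium and around muscle cells. The 6 type IV chains assemble into just 3 kinds of trimer: alpha1-alpha1-alpha2, found in nearly all basement membranes, alpha3-alpha4-alpha5, of more specialised membranes such as that of the kidney glomerulus, and alpha5-alpha5-alpha6.

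The genes of type IV chains lie in 3 pairs that point away from each other. In the data below Col4a3 and Col4a4 fell, and the chains of the other pairs did not pass. A promoter window of each pair, 250 bases before to 50 after an annotated start, is shown (RefSeq, GRCm38.p6, minus strand, 5′ to 3′). In the window of Col4a4 (chr1:82586800-82587099) the capitals run from the start of Col4a3, on the plus strand, to the start of Col4a4, 72 bases away. In the window of Col4a1 (chr8:11312777-11313076) the capitals mark the 22 bases by which Col4a1 and Col4a2 overlap at their starts. In the window of Col4a6 (chrX:141474027-141474326) the capitals mark 10 bases made of overlapping matches to TGATTGAC and TGACAG, sequences known to be bound by Pbx-Meis dimers and by Meis proteins. The start of Col4a5 lies 1309 bases from that of Col4a6, outside this window.
Col4a4: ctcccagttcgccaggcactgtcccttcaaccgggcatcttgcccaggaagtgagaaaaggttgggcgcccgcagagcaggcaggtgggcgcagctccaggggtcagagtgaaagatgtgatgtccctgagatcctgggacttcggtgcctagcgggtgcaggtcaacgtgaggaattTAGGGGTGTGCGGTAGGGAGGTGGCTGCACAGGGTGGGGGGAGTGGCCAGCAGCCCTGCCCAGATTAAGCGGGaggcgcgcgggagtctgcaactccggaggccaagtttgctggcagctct
Col4a1: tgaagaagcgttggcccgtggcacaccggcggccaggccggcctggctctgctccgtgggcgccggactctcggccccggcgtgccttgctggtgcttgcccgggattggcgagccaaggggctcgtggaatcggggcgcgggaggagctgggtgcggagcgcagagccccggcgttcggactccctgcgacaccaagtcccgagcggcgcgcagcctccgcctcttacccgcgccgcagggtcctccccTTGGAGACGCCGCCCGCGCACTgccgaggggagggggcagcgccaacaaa
Col4a6: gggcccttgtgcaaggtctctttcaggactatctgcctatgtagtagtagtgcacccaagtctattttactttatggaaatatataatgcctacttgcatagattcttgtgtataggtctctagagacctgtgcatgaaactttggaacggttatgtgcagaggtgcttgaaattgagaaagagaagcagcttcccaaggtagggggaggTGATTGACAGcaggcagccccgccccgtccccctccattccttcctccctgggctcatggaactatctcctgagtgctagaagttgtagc

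Searched on both strands, TGACAG occurred in 6 of 30 promoter windows of 28 collagen genes (Col3a1, Col4a6, Col6a6, Col7a1, Col9a2 and Col15a1), and in 19.2% of the 32851 windows of all genes. Of those 6 genes, Col3a1 and Col6a6 were lower in dKO libraries and the other 4 did not pass the test. TGATTGAC occurred in 1 collagen window, that of Col4a6, and in 0.770% of all windows. The Col4a4 and Col4a1 windows held neither. A match is a description of the letters only.

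The recovered read totals ran from 13146322 to 20635676 per library. Values are normalised read counts, scaled to a common library size, and 1 read was worth 0.0487 to 0.0740. Meis2 had 86.1, 85.6 and 63.3 in controls and 44.5, 34.8 and 44.5 in dKO libraries (limma adjusted p = 0.00352). Meis1 overlapped between the groups and did not pass (limma adjusted p = 0.521). Both values cover all exons and so do not measure the deleted part. Control 1 stood apart from its group among the chains too: 6 of 36 chains were at least 2-fold above the mean of the other controls there (Col2a1, Col5a3, Col6a5, Col12a1, Col23a1 and Col28a1). The changes of these 6 chains are given with and without it. The Y-linked Ddx3y exceeded Xist in 1 of 3 control and 2 of 3 dKO pools. That does not give the number of males in a pool, so sex may not be balanced. Col4a5 and Col4a6 are X-linked.

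More collagen chains were lower in the dKO libraries than higher. Of 36 chains, 16 fell and 2 rose in the comparison fitted across all genes (limma, Benjamini-Hochberg adjusted p under 0.05), against 12.2% of all 14549 genes lower and 9.81% higher, or 22.0% in either direction. Counts within the classes below are to be read against the same shares. The median log2 change, dKO minus control, was -0.53 for the chains and 0.0016 for all genes. The 2 groups did not overlap for 21 chains, 17 lower and 4 higher in dKO libraries. Among all 14549 genes they did not overlap for 40.4%, with 3064 genes lower and 2807 higher. Between 13 and 17 chains were lower, and 0 to 3 higher, when any 1 library was left out. Less RNA per cell and a smaller share of collagen-producing cells in the tissue cannot be told apart in bulk tissue.

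**Figure D1:**
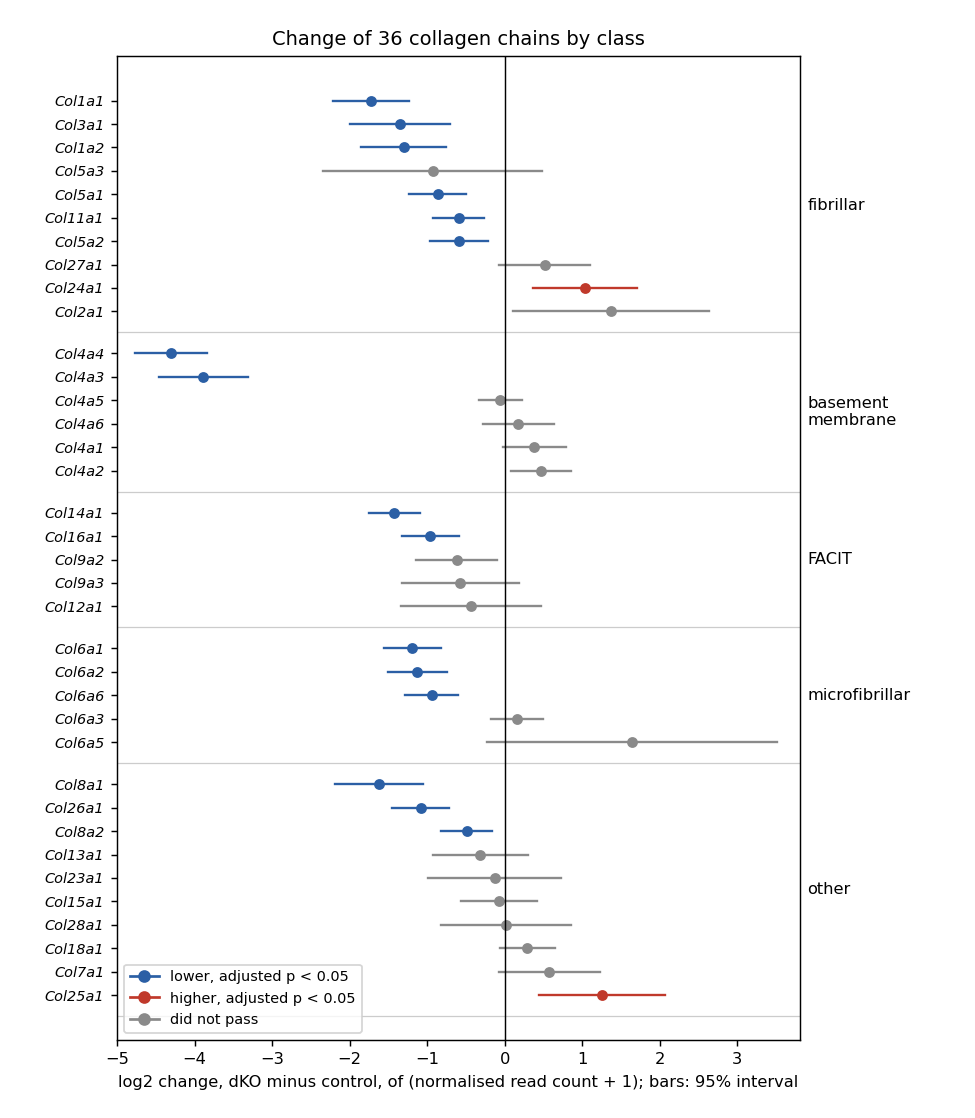
Log2 change (x axis, dKO minus control, of the normalised read count plus 1) of each of the 36 collagen chains, in 5 classes. Points are estimates, bars are 95% intervals and colours give the call. Col4a3 and Col4a4 lie at -3.89 and -4.30, apart from the other type IV chains, which lie between -0.06 and 0.46.

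Fibrillar chains, which make the bulk of collagen RNA, were lower for types I and III, for Col5a1 and Col5a2 of type V and for Col11a1 of type XI. Of 10 fibrillar chains, 6 fell, 1 rose and 3 did not pass, with a median log2 change of -0.73. The 10% that rose was near the 9.81% of all genes, and 12.2% of all genes fell. Col1a1, the alpha1 chain of type I (GRCm38 chromosome 11, 94936224 to 94953042), had 5367, 4755 and 5307 in controls 1, 2 and 4 and 1991, 1418 and 1323 in dKO 1, 2 and 3. Every dKO library lay below every control, and dKO 1 was the highest of the 3. The means were 5143 ± 337 and 1577 ± 362 (SD, n = 3 each), a log2 change of -1.73 with a standard error (SE) of 0.22 (limma adjusted p = 0.000559).

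Col1a2, the alpha2 chain that joins 2 alpha1 chains in the common type I trimer (chromosome 6, 4504814 to 4541544), had 8605, 8019 and 7943 in controls and 3851, 3095 and 3061 in dKO libraries. Its log2 change was -1.303 (SE 0.25, limma adjusted p = 0.00443). Col3a1, the single chain of type III, which co-assembles with type I in compliant tissue (chromosome 1, 45311538 to 45349706), had 12141, 10780.3 and 11328 in controls and 5573, 4019.7 and 3961 in dKO libraries. Col3a1 fell by 1.35 (SE 0.29, limma adjusted p = 0.00819, and 0.0549 without dKO 3). In all 3 genes the groups were separate and dKO 1 was the highest dKO library.

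Of the type V and XI chains, which nucleate type I fibrils and limit their diameter, Col5a1, Col5a2 and Col11a1 fell. Col5a1 had 776, 706 and 858 in controls and 516, 426 and 351 in dKO libraries, with no overlap (log2 change -0.87, SE 0.16, limma adjusted p = 0.00435). Col5a2 changed by -0.59 (limma adjusted p = 0.0310) and Col11a1 by -0.59 (limma adjusted p = 0.0170). Col5a2 did not pass in 5 of the 6 fits that left out 1 library, with limma adjusted p of 0.0611 without control 1, 0.0631 without control 4 and 0.0714, 0.110 and 0.06255 without dKO 1, 2 and 3. Col11a1 did not pass without control 4 (0.0595) or dKO 1 (0.0538). Neither chain passed without a variance trend (limma adjusted p = 0.0683 for Col5a2 and 0.0540 for Col11a1).

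Of the 4 remaining fibrillar chains, 1 rose and 3 did not pass. Col24a1, of a minor fibrillar type (chromosome 3, 145292472 to 145552011), had 1.27, 1.63 and 1.87 in controls and 6.12, 4.18 and 2.996 in dKO libraries, from 20 to 29 and 56 to 98 reads. Its groups did not overlap and it rose by 1.04 on the log2 scale (SE 0.30, limma adjusted p = 0.0336), but it did not pass without control 1, 2 or 4 or without dKO 1 or 2 (limma adjusted p from 0.0553 to 0.101).

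Col2a1, the chain of cartilage collagen, had 6.21, 1.12 and 0.476 in controls and 12.3, 4.62 and 4.21 in dKO libraries. Control 1 exceeded dKO 2 and dKO 3, and the change of 1.37 did not pass (SE 0.57, limma adjusted p = 0.114). Without control 1 it was 2.05 (limma adjusted p = 0.00707), and without any other library 0.90 to 1.62 (limma adjusted p from 0.129 to 0.313). Of 12 cartilage markers listed, 5 were measured (Sox5, Sox6, Sox9, Hapln1 and Cnmd). All 5 were lower in dKO libraries, against 12.2% of all genes. Their sum was 34.5 to 39.9 in dKO libraries and 81.9 to 111.7 in controls. The matrix genes Acan, Chad, Comp, Matn1, Matn3 and Matn4, and Snorc, were not analysed here, so these 5 do not measure cartilage matrix as a whole. The bearing of these 5 on the values of Col2a1 was not tested.

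Col5a3, a minor type V chain, had 24.5 in control 1 and 1.34 to 5.19 in the other 5 libraries, and did not pass (-0.93, 95% interval -2.34 to 0.48). Its change was -0.094 without control 1 and -0.50 to -1.36 without any other library. Col27a1 did not pass either (0.52, -0.07 to 1.10), and was 0.21 without dKO 1.

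Basement membrane chains split by gene pair. Of 6 type IV chains, 2 fell, 0 rose and 4 did not pass (median log2 change 0.06, mean -1.20). The 2 that fell were Col4a3 and Col4a4, head-to-head partners on chromosome 1 and the first 2 chains of the alpha3-alpha4-alpha5 trimer. They had the lowest log2 changes of all 36 chains.

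Col4a4 (chromosome 1, 82448423 to 82586849) had 40.0, 35.97 and 43.0 in controls and 1.15, 1.07 and 0.95002 in dKO libraries. Those dKO values rest on 18, 14 and 19 reads, against 647, 563 and 676 in controls. Means were 39.6 ± 3.51 and 1.06 ± 0.101 (SD, n = 3), 37.5-fold lower, with a log2 change of -4.30 (SE 0.21, limma adjusted p = 2.12e-06). That scale adds 1 to each value and understates the change of low genes, and edgeR on recovered reads gave -5.27.

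Col4a3 (chromosome 1, 82586921 to 82722059) had 25.8, 22.8 and 17.5 in controls and 0.404, 0.777 and 0.463 in dKO libraries, the latter from 6, 10 and 9 reads. Its mean was 40.2-fold lower, with a log2 change of -3.89 (SE 0.26, limma adjusted p = 1.07e-05) and of -5.42 with edgeR. Both genes passed in every alternative run, including a block on the library numbers. Another gene, C430014B12Rik, shares 5.65% of the exonic bases of Col4a3.

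The remaining chain of that trimer did not follow. Col4a5 (chromosome X, 141475385 to 141689234) had 252, 215 and 227 in controls and 199, 222 and 245 in dKO libraries. The ranges of Col4a5 overlapped, and its change was -0.06 with a 95% interval of -0.34 to 0.22 (limma adjusted p = 0.788). Col4a6, its neighbour and the only other partner of alpha5, had 53.3, 30.9 and 31.0 in controls and 44.7, 39.3 and 42.2 in dKO libraries (0.17, -0.28 to 0.63), a change of 0.43 without control 1 (limma adjusted p = 0.0706) and of 0.045 without control 2. Control 1 was the highest of the 6 libraries for both X-linked chains.

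The chains of the common type IV trimer had higher means in dKO libraries but did not pass. Col4a1 (chromosome 8, 11198423 to 11312826) had 837, 1055 and 1266 in controls and 1458, 1367 and 1242 in dKO libraries, with control 4 above dKO 3 (log2 change 0.38, 95% interval -0.02 to 0.79, limma adjusted p = 0.167). Col4a2 (chromosome 8, 11312805 to 11449287) had 400.2, 504 and 599 in controls and 787, 662 and 609 in dKO libraries. The groups of Col4a2 did not overlap, and its change was 0.46 (0.08 to 0.85, limma adjusted p = 0.0829). Col4a2 passed without control 4 (0.60, limma adjusted p = 0.0474) and with DESeq2 (0.45, adjusted p = 0.0414), but not with edgeR (0.45, adjusted p = 0.111) or without any other library. Its lowest changes were 0.31 without control 1 (limma adjusted p = 0.208) and 0.21 when dKO 1 was left out as well (0.319).

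**Figure D2:**
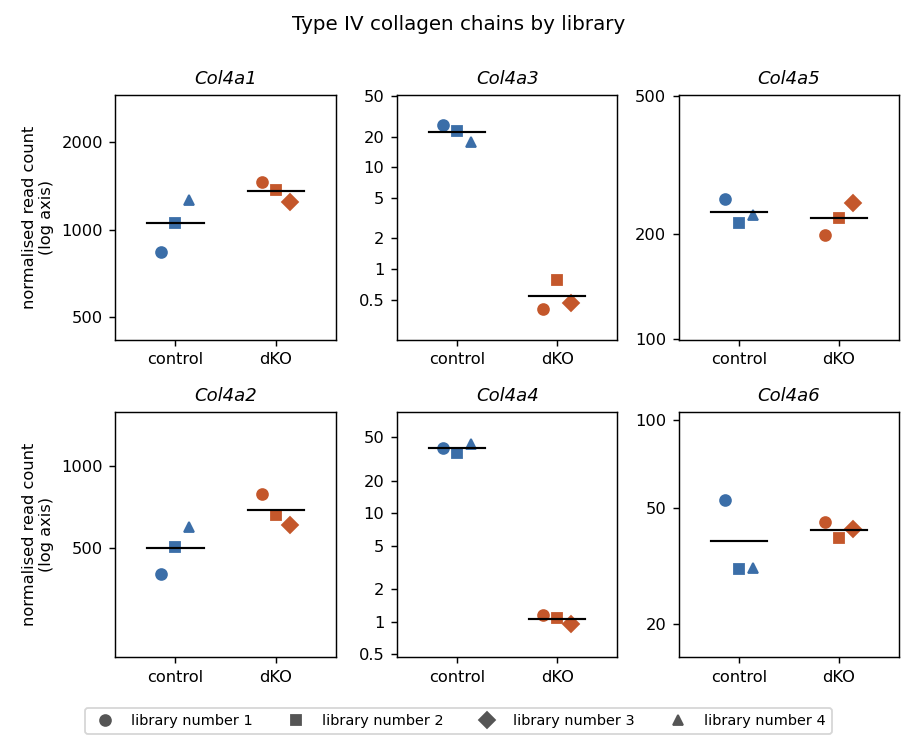
Normalised read counts (log axes) of the 6 type IV collagen chains in each control and dKO library, with symbols for library numbers and lines at group means. Each column holds a gene pair. Col4a3 and Col4a4 fall from 17.5 or more to 1.15 or less, and the groups of the other 4 chains lie close together or overlap.

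FACIT chains had negative changes throughout, and 2 of 5 passed (0 higher, median log2 change -0.62). Col14a1, a fibril surface collagen of dense mesenchyme (chromosome 15, 55307750 to 55520803), had 837, 735 and 1008 in controls and 314, 344 and 296 in dKO libraries. Its groups were far apart (log2 change -1.42, SE 0.15, limma adjusted p = 0.000148). Col16a1 had 77.8, 68.9 and 100.1 in controls and 46.2, 42.4 and 36.03 in dKO libraries, again with no overlap (-0.96, SE 0.16, limma adjusted p = 0.00266).

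Col12a1, a FACIT chain of tissues under load, depended on single controls: it had 345, 76.9 and 161 in controls and 112, 115 and 134 in dKO libraries. The dKO values lay within the control range and the change was -0.43 (95% interval -1.34 to 0.47). It was 0.11 without control 1 and -0.97 without control 2 (limma adjusted p = 0.0406). Col9a2 changed by -0.62 and did not pass (limma adjusted p = 0.0888, and 0.0150 without dKO 1), nor did Col9a3 (-0.57).

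Microfibrillar chains split between those that fell and Col6a3 and Col6a5, which did not pass. Of 5 type VI chains, 3 fell, 0 rose and 2 did not pass (median -0.94). The alpha1 and alpha2 chains form the constant part of a type VI monomer. Among the chains measured here, alpha3, alpha5 and alpha6 are the variable ones. Col6a1 (chromosome 10, 76708792 to 76726168) had 601, 668 and 810.2 in controls and 311, 349 and 249 in dKO libraries (-1.19, SE 0.16, limma adjusted p = 0.000825). Col6a2, its neighbour on the same strand (76595762 to 76623630), had 397, 453 and 559.9 in controls and 239.7, 232 and 173 in dKO libraries (-1.13, SE 0.17, limma adjusted p = 0.00137). For both, every dKO library was below every control.

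Among the variable chains, Col6a6 (chromosome 9, 105687809 to 105828160) fell, with 327, 263 and 256 in controls and 129, 176 and 136 in dKO libraries (-0.94, SE 0.15, limma adjusted p = 0.00202). Col6a3, the usual variable chain (chromosome 1, 90765923 to 90843971), had 321, 234 and 253 in controls and 313, 329 and 258 in dKO libraries. Its groups overlapped and its change was 0.16 (95% interval -0.18 to 0.50, limma adjusted p = 0.499).

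Col6a5 (chromosome 9, 105856078 to 105960643), singled out after its values were seen, had 51.2, 2.90 and 2.25 in controls and 20.0, 33.5 and 26.7 in dKO libraries. Control 1 was above and the other controls were below all dKO libraries. With all 6 libraries it did not pass (1.64, SE 0.84, limma adjusted p = 0.196). Without control 1 the change was 2.93 (limma adjusted p = 3.67e-05). Leaving out dKO 1 as well gave 3.12 (limma adjusted p = 7.65e-06). The change was 1.06 without control 2 and 0.93 without control 4 (limma adjusted p = 0.464 and 0.495), and edgeR on all 6 libraries gave 0.51 (adjusted p = 0.7506).

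**Figure D3:**
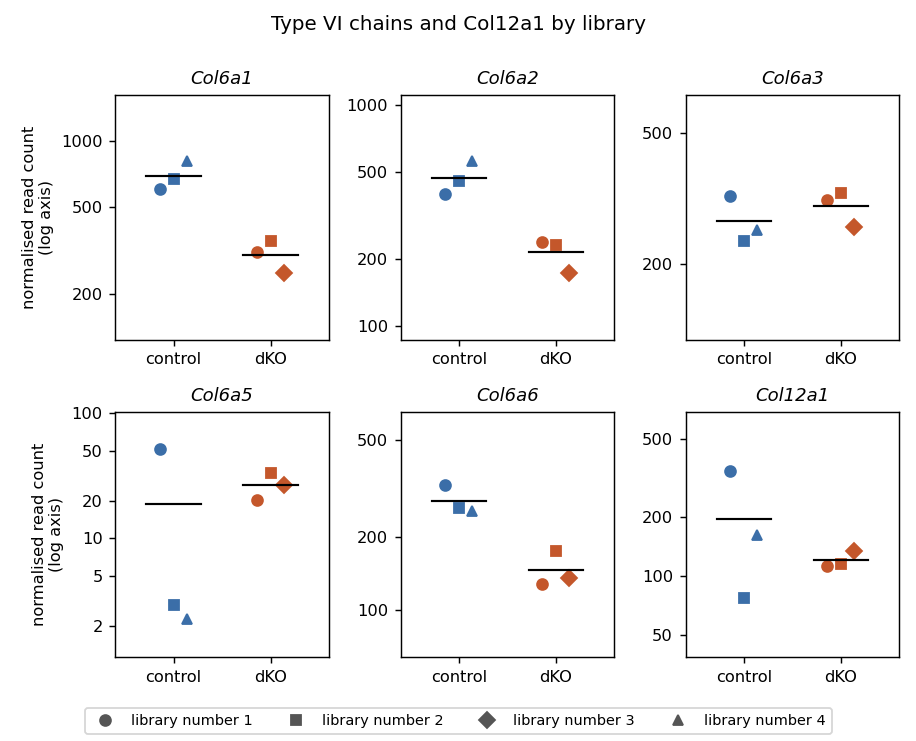
Normalised read counts (log axes) of the 5 type VI chains and the FACIT chain Col12a1 in each control and dKO library, with symbols for library numbers and lines at group means. Control 1 is at 51.2 for Col6a5 and 345 for Col12a1, far above the other 2 controls.

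Of the 10 remaining chains, 3 fell, 1 rose and 6 did not pass (median log2 change -0.10). The share that rose, 10%, was near the 9.81% of all genes, and 12.2% of all genes fell. Both chains of type VIII, a short-chain network collagen of vessel walls and specialised matrices, fell. Col8a1 (chromosome 16, 57624258 to 57754737) had 14.05, 9.48 and 10.5 in controls and 3.64, 2.996 and 2.36 in dKO libraries (-1.62, SE 0.25, limma adjusted p = 0.00171). Col8a2 (chromosome 4, 126286793 to 126314330) had 83.1, 61.6 and 76.0 in controls and 58.2, 47.6 and 49.6 in dKO libraries (-0.49, SE 0.15, limma adjusted p = 0.0386). The call of Col8a2 was lost without control 1, control 4, dKO 2 or dKO 3 (limma adjusted p from 0.0992 to 0.132).

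Col26a1, an Emilin-related matrix gene (chromosome 5, 136741759 to 136883209), had 58.9, 54.0 and 48.5 in controls and 20.5, 25.4 and 29.1 in dKO libraries (-1.09, SE 0.16, limma adjusted p = 0.00133). The transmembrane chain gene Col25a1 (chromosome 3, 130131501 to 130599877) had 1.204, 1.24 and 3.52 in controls and 3.82, 6.03 and 8.01 in dKO libraries. It rose by 1.26 (SE 0.37, limma adjusted p = 0.0330). With edgeR the change was 1.595 and did not pass (adjusted p = 0.0627), and the limma call was lost without control 1, control 2, dKO 2 or dKO 3 (adjusted p from 0.0808 to 0.129).

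The multiplexins, proteoglycan collagens of basement membrane zones whose ends release endostatin-type fragments, did not pass. Col15a1 had 137, 107 and 117 in controls and 156, 119.7 and 77.7 in dKO libraries (-0.08, 95% interval -0.57 to 0.41). Col18a1 had 91.5, 88.9 and 133 in controls and 127, 118 and 132 in dKO libraries (0.29, -0.07 to 0.65). The change of Col18a1 was 0.48 without control 4 (limma adjusted p = 0.0343), 0.19 without control 2 (0.494) and 0.21 without control 1 (0.438). The anchoring fibril chain Col7a1 (0.57), the transmembrane chains Col13a1 (-0.31) and Col23a1 (-0.13), and Col28a1 (0.01) did not pass. Without control 1 the changes of Col23a1 and Col28a1 were 0.19 and 0.39.

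Summed per kilobase of annotated exon, collagen signal came to 3666, 3330.3 and 3647 in controls and 1931, 1588 and 1493 in dKO libraries, a ratio of means of 0.471. These levels set genes side by side and depend on exon lengths, here the union of all annotated exons. Fibrillar chains made up 78.9% ± 2.02 (SD, n = 3) of that sum in controls and 65.0% ± 2.83 in dKO libraries, and type IV chains 7.40% ± 1.16 and 19.5% ± 1.196. The fibrillar sum went from 2801 ± 164 to 1090.1 ± 193, the FACIT sum from 154 ± 25.2 to 63.5 ± 3.54 and the type VI sum from 269.9 ± 27.4 to 139 ± 20.6. The type IV sum was 262 ± 40.2 in control pools against 324 ± 24.7 in dKO pools, with control 4 (303) above dKO 3 (300.3), and that of the other chains 61.4 ± 6.62 and 54.7 ± 6.21. No test was made of these sums.

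**Figure D4:**
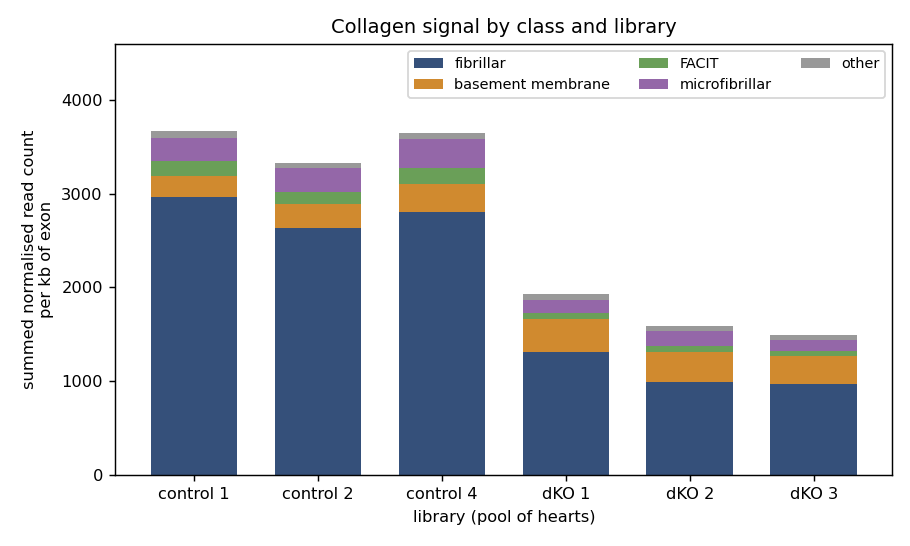
Summed normalised read count per kilobase of exon (y axis) in each library, stacked by collagen class. The 3 controls reach 3330.3 to 3666 and the 3 dKO libraries 1493 to 1931. The type IV part has a mean of 262 in controls and 324 in dKO libraries, with control 4 above dKO 3.

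By mean level per kilobase, Col3a1 was first in both groups (1163 in controls, 460.3 in dKO libraries). Col1a1 (784) and Col1a2 (659) followed in controls, and Col1a2 (268) and Col1a1 (240.3) in dKO libraries. Col6a1 stood 4th in controls (158) and Col4a1 4th in dKO libraries (182). In the same order Col4a2 stood 9th and then 5th, and Col4a4 23rd and then 35th of 36. Without division by exon length, types I and III together held 2.40% to 2.82% of all signal in the table in controls and 0.830% to 1.002% in dKO libraries.

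Ratios between chains describe their proportions, and a change in such a ratio does not depend on exon length. For 13 pairs the log2 ratio was compared over libraries with an exact two-sided permutation test, unadjusted, which cannot go below p = 0.1 with 3 against 3. Groups did not overlap for 5 of the 13 pairs, each at exact p = 0.1. For single genes, groups did not overlap for 40.4% of all genes, and no such share was computed for other gene pairs. Several pairs share a chain, so they are not independent. Col1a1 to Col1a2, the 2 chains of type I, went from a per-kilobase log2 ratio of 0.25 ± 0.09 (SD, n = 3) in controls to -0.18 ± 0.13 in dKO libraries. Col3a1 to Col1a1 went from 0.57 ± 0.05 to 0.94 ± 0.05.

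Col6a3 to Col6a1 had the widest gap in the upward direction among pairs without overlap, from -2.81 ± 0.41 to -1.46 ± 0.07. Col8a1 to Col8a2 went from -3.51 ± 0.15 to -4.93 ± 0.23. Col4a1 to Col4a2 went from 0.897 ± 0.009 to 0.815 ± 0.085, a difference of -0.08, which was -0.03 without dKO 1.

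For the partners Col4a3 and Col4a4, which fell together, the difference of the ratio was -0.14 with overlapping groups (exact permutation p = 0.7). For Col6a1 to Col6a2 it was -0.07 (exact permutation p = 0.4), with overlap.

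**Figure D5:**
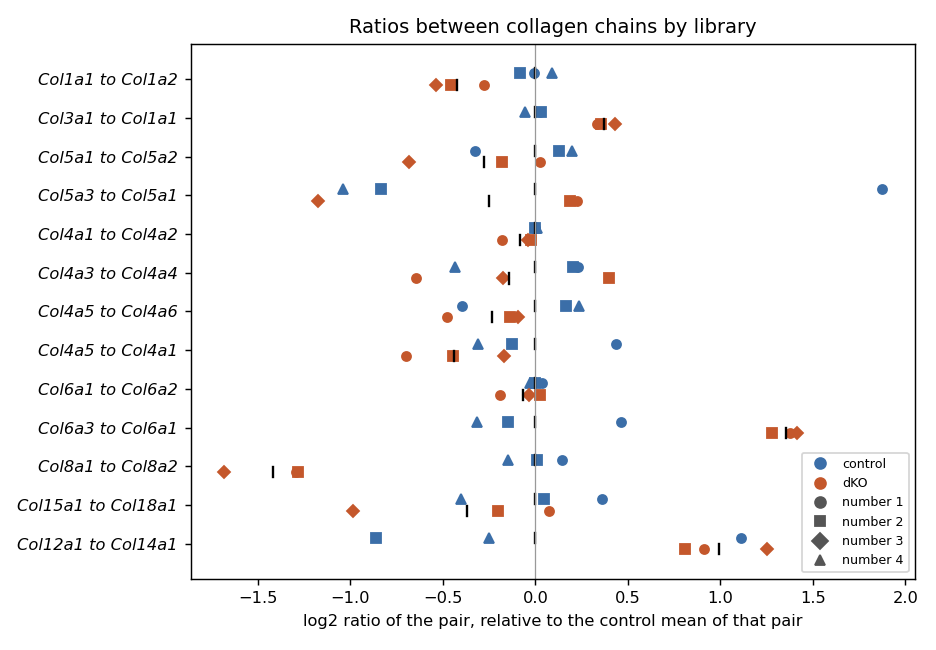
Log2 ratio of 13 pairs of collagen chains in each library (x axis), set to the control mean of each pair, with black ticks at group means. Controls and dKO libraries separate for 5 pairs, by -0.42 for Col1a1 to Col1a2 and 1.36 for Col6a3 to Col6a1.

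Genes that make and handle collagen were counted from lists of textbook members, to be read against 12.2% of all genes lower and 9.81% higher. Of 23 genes for folding, modification and export inside the cell, 11 fell and 0 rose (median -0.42). They included Creb3l1, a transcription factor of collagen secretion (112 to 29.7, -1.88, limma adjusted p = 1.67e-05), the prolyl hydroxylase P4ha1 (348 to 179.8, -0.95) and the folding enzyme Fkbp14 (120.4 to 53.8, -1.14). Of 15 measured genes for processing and fibril assembly outside the cell, 11 fell and 0 rose (median -1.28). Tll1, a procollagen C-proteinase, went from 15.7 to 0.797 (-3.23), the fibril-binding proteoglycan Fmod from 214 to 32.2 (-2.71) and the cross-linking oxidase Lox from 859.8 to 186 (-2.19). Dcn, Lum and Lox of this list also stand among the fibroblast markers below. Of 9 measured collagen receptors, 1 fell (11.1%, near the share of all genes) and 0 rose (median 0.27), the endocytic receptor Mrc2 (78.8 to 47.8, -0.72, limma adjusted p = 0.0171). Without control 4, dKO 2 or dKO 3 the call of Mrc2 was lost (limma adjusted p from 0.0570 to 0.0710).

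Markers of several cell types moved with these groups, and their part in the collagen results was not tested. Of 14 fibroblast markers other than collagens, 9 fell and 0 rose (summed level 7860 to 9130 in controls and 5288 to 5745 in dKO libraries). The changes of 13 were negative. Postn went the other way without passing, at 1911, 1704 and 1988 in controls and 2743, 2416 and 2346 in dKO libraries. It is a large part of that sum. Of 14 epicardial and mesothelial markers all 14 fell (summed level 2197 to 3295 in controls and 324 to 430.1 in dKO libraries). Of 14 cardiomyocyte markers, 13 rose and 0 fell (5805 to 12815 and 30182 to 33038), with control 1 the lowest. Of 10 mural markers, 7 rose and 0 fell (720.2 to 1120.5 and 2094 to 2264), against 9.81% of all genes. Of 10 endothelial markers 1 fell, a share below the 12.2% of all genes (1181 to 1799 and 1441 to 1607). Of 9 macrophage markers 4 fell, and of 8 Schwann and glial markers 4 were measured and 1 fell. No measured marker was under 1 in all 6 libraries, which was also true of every other gene in the table.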

How the data were processed

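The submitters' processing notes name cutadapt, RSEM 1.3.1 and the build GRCm38. The sources used here do not give the annotation release, the normalization or the gene filter. The deposited values are a normalised signal per gene and library. All 87294 values equalled whole reads plus 0.5, divided by a TMM-scaled library size (tolerance 0.01 reads), so reads were recovered for the count tests. The library kit is not stated to keep strand.

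Differences were fitted across all 14549 genes with limma 3.58.1 (R 4.3.3) on log2 of the value plus 1, with a variance trend, no covariate and Benjamini-Hochberg adjustment. A filter of 1 or more in at least 3 libraries removed no gene. Intervals are 95% limma intervals and are not adjusted. Replicates are pools of hearts, so p-values measure the spread between pools. Alternatives were other pseudocounts and filters, quantile normalization, no trend, edgeR 4.0.16, DESeq2 1.42.0, left-out libraries and a block on library number. Coordinates, exon lengths and overlaps come from GENCODE M21 (GRCm38), and promoter windows from RefSeq.

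The chains, classes and lists were chosen with earlier results of these data known. Per-library values are given, within each class, for up to 4 passing chains with the smallest p, the 2 highest per kilobase and every rising chain. In each list of other genes, up to 3 members with the smallest p in each direction could be named. Col2a1, Col4a5, Col4a6, Col5a3, Col6a3, Col6a5 and Postn were added after their values were seen.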

Additional observations from a re-analysis of the deposited data

How the results depend on the processing

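The 18 called chains kept their calls with pseudocounts of 0.25 and 5, and 17 did so with edgeR and with quantile normalization, 18 with DESeq2 and 15 without a variance trend. The number of lower chains was 13 to 16 in these fits. The filter at 5 removed the low chains, so 0 were higher, 0 of them fibrillar and 0 in the class of other chains. With edgeR 1 chain was higher and 0 in the class of other chains, and with DESeq2 1 basement membrane chain was higher. When 1 library was left out, 0 to 3 chains were higher, among them 0 to 1 fibrillar, 0 to 1 basement membrane, 0 to 1 microfibrillar and 0 to 2 other chains. Over all genes 898 to 1262 were higher then. Without both libraries numbered 1, 1 microfibrillar chain was higher.

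The library numbers pair nothing in the labels, and the deviations of same-numbered libraries correlated at -0.18 (number 1) and -0.20 (number 2). A replicate block on them leaves 1 residual degree of freedom. It left 7 chains lower and 0 higher, with 0 fibrillar chains in either direction, 1 FACIT chain lower and 0 other chains higher, and 780 genes lower and 580 higher in all.

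The changes of 5 chains and Meis1, none of which had passed, changed sign. Without both libraries numbered 1 they were 0.15 for Col12a1, 0.31 for Col23a1, 0.082 for Col4a5 and 0.13 for Meis1. Without 1 library the range was -0.97 to 0.11 for Col12a1, -0.31 to 0.19 for Col15a1, -0.51 to 0.19 for Col23a1, -0.13 to 0.019 for Col4a5, -0.21 to 0.39 for Col28a1 and -0.32 to 0.045 for Meis1. Col28a1 was -0.014 with a pseudocount of 5, -0.13 with edgeR, -0.14 with DESeq2 and -0.35 with the block, and Col15a1 was 0.18 with the block. The causes were not tested. Chains with few reads in a library (from 6 for Col4a3 in dKO 1 and 7 for Col2a1 in control 4) are limited by counting error.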
